A study of Mus musculus with 6 samples.

Results

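The cytosolic ribosomal proteins are the proteins that, with the ribosomal RNAs, make up the large and the small subunit of the ribosome in the cytoplasm. Their genes were taken from the deposited expression table by gene symbol: Rpl or Rps followed by a number and at most a letter a, l, x or y, together with Rplp0, Rplp1, Rplp2 and Rpsa, with rows named as pseudogenes left out. Of 81 rows with such names 80 had values, out of 19503 rows with values in all. They were 49 proteins of the large and 31 of the small subunit. The table held 78 of the 80 at 1 FPKM (a fragment count divided by transcript length and library size) or more in at least 3 libraries, and these 78 were tested. Rpl32l and Rpl39l stayed below that level, at 0 to 0.3 FPKM in every library.

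A ribosome needs its proteins in nearly equal numbers, and their mRNAs are among the most abundant in most tissues. Many of these mRNAs begin with a run of pyrimidines, the 5' terminal oligopyrimidine (TOP) tract, through which the kinase complex mTORC1 and the binding protein Larp1 control their translation, while Myc and factors such as Gabpa, Sp1 and Yy1 act on transcription of the genes. Free Rpl5 and Rpl11 bind Mdm2, the ligase that degrades p53, when ribosome assembly fails, and inherited loss of a copy of several members causes Diamond-Blackfan anaemia in people. In the kidney, growth of the tubules after loss of tissue or injury goes with more ribosome production.

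Total RNA came from whole flash-frozen mouse kidneys at 8 weeks of age, with 3 libraries labelled R26NICD2/+pax8cre and 3 labelled wild type (WT). R26NICD2 is an allele at the Rosa26 locus that yields the intracellular domain of Notch2, the active form of this receptor, in cells with Cre. Pax8 is active in the epithelium of the renal tubule, so other kidney cells are not expected to recombine the allele, and the series title names an rtTA driver where the sample labels name Cre. The WT libraries are titled NICD and a number, and the R26NICD2/+pax8cre libraries NICD_Pax and a number. Beyond these titles, the sources used here do not state whether the WT kidneys carry the allele without the driver. Each title has its own number, but nothing in the labels ties each library to its own animal. The p-values therefore reflect the spread among these 6 libraries, part of which may be technical.

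WT replicate 1 stood apart before any result is read. It held transcripts of the adrenal cortex at a summed 3629 FPKM over 5 marker genes, against 1.39 to 1.6 FPKM in the R26NICD2/+pax8cre libraries and 1.63 and 1.41 FPKM in the other WT libraries. Its summed fat markers came to 4310 FPKM, against 63.1 to 413.6 FPKM in R26NICD2/+pax8cre and 892 and 152 FPKM in WT replicates 2 and 3. The kidney identity of the WT tissue was read from 10 proximal tubule genes, which summed to 59655 to 90870 FPKM in WT. In R26NICD2/+pax8cre replicates 1, 2 and 3 they summed to only 200, 4793 and 1101 FPKM. These libraries differed widely, and the genes cannot show kidney identity for that group. All 10 passed the test as lower in R26NICD2/+pax8cre. Depth was estimated, from the steps between low values, at 15900000 to 17600000 fragments in R26NICD2/+pax8cre and 14600000 to 15000000 in WT, so that 1 FPKM of a transcript with 500 bases of effective length rested on 7.3 to 8.8 fragments.

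In R26NICD2/+pax8cre kidneys nearly every ribosomal protein mRNA stood at more than its WT level. The members together held 14.2%, 12.8% and 12.3% of summed FPKM in the 3 R26NICD2/+pax8cre libraries, against 6.03%, 4.66% and 4.75% in the 3 WT libraries. The groups did not overlap, and the mean share was 13.1% ± 0.988 in R26NICD2/+pax8cre and 5.15% ± 0.768 in WT (SD, n = 3 each), a ratio of 2.55. Summed over members, FPKM came to 73672, 68732 and 64527 in R26NICD2/+pax8cre and 34079, 26329 and 27756 in WT, a ratio of 2.35, or 2.55 without WT replicate 1. Kap, a very abundant proximal tubule mRNA, takes a large part of the WT libraries. With Kap left out of the sum the members held 14.2%, 12.9% and 12.4% in R26NICD2/+pax8cre and 6.69%, 5.43% and 5.56% in WT.

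Of the 78 members tested, 76 rose and 0 fell at an adjusted p under 0.05 (limma on log2(FPKM + 1), Benjamini-Hochberg over 13500 genes). Among all genes tested 45.1% were called higher and 16.2% lower. All 78 members, with Rpl3l as lower, had an unadjusted p under 0.05, and so did 8874 of the 13500 genes tested. The authors' deposited table gave a q under 0.05 to 73 of the 80 members as higher and 1 as lower, against 21.3% higher and 21.5% lower of all its genes. Rpl3l and Rpl30 did not pass the limma test. The median log2 fold change was 1.22 over members, with quartiles at 1.07 and 1.40, and 0.32 over all genes. The libraries of the groups did not overlap for 77 members, 76 of them higher and 1 lower in R26NICD2/+pax8cre, against 49.9% higher and 18.8% lower of all genes. Without WT replicate 1, 77 members were called higher and 0 lower, against 50.4% higher and 15.6% lower of all genes, with a median of 1.33. In whole kidney, more cells with many ribosomes and more ribosomal mRNA per cell cannot be told apart. Markers of dividing cells moved the same way, with 13 of 13 called higher and summed levels of 640 to 766 FPKM in R26NICD2/+pax8cre and 63.7 to 92.6 FPKM in WT, and so did macrophage markers, with 8 of 10 called higher and 1508 to 1983 FPKM against 352 to 681 FPKM. In both lists no marker was at 0 in all libraries, and the part of these cells in the result was not tested.

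FPKM carries no correction for the make-up of a library, and the median of all genes was shifted by the same 0.32. Median-of-ratios scaling brought that median to 0.02. After it 72 members were called higher and 1 lower, against 28.7% higher and 25.7% lower of all genes, and the median log2 fold change of the members was 0.87. The member lower was Rpl3l. Rps27l, Rpl30, Rpl10, Rpl27 and Rps7 did not pass after scaling.

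**Figure D1:**
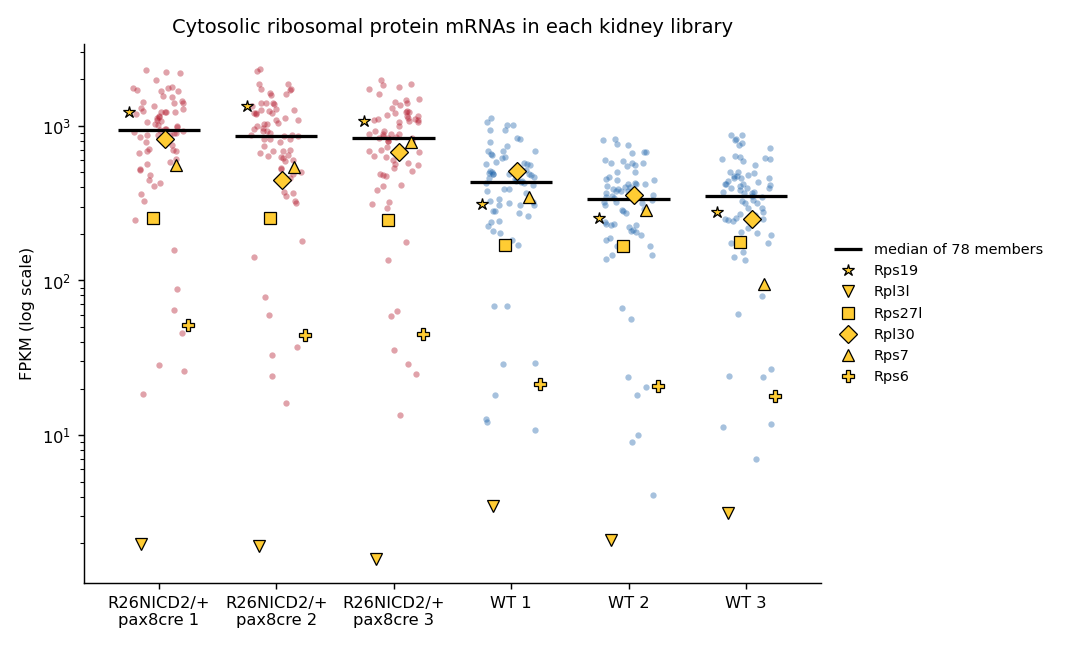
FPKM on a log scale of the 78 tested ribosomal protein mRNAs in each library, 3 of R26NICD2/+pax8cre kidneys in red and 3 of WT kidneys in blue; black bars are the median member and yellow symbols mark 6 named genes. The median member lies at 934, 862 and 837 FPKM in the R26NICD2/+pax8cre libraries and at 436, 337 and 350 FPKM in the WT libraries.

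The change was of similar size over most members. The ratio of group mean FPKM ran from 0.625 to 4.33 with a median of 2.33, and it lay between 2 and 3 for 57 of the 78. It was 3 or more for 5 members, 1.5 to 2 for 14, 1 to 1.5 for 1 and under 1 for 1. Group means exceeded 1000 FPKM for 30 members in R26NICD2/+pax8cre and for 0 in WT, where the highest was 919 FPKM. R26NICD2/+pax8cre replicate 1 was the highest library of its group for 56 members (71.8%) and for 38.6% of all genes tested, and WT replicate 1 the highest WT library for 73 members (93.6%) and for 52.5% of all genes. The log2 fold changes followed the length and the level of the transcript at most loosely, with a Pearson r of -0.134 and a Spearman rho of -0.0083 over the 78 members for the length of the longest transcript, and 0.365 and 0.131 for mean FPKM. Members share libraries, and no test was made.

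Both subunits rose. Of 31 small subunit members 31 were called higher, with a median log2 fold change of 1.25, and of 47 large subunit members 45 were called higher, with a median of 1.16. The share called higher of all genes tested was 45.1%. The ratio of summed large to summed small subunit FPKM was 1.29, 1.26 and 1.27 in R26NICD2/+pax8cre and 1.33, 1.37 and 1.37 in WT, so the small subunit held slightly more of the sum in every R26NICD2/+pax8cre library than in any WT library. The members lie on 19 chromosomes. The 14 on chromosome 7 had a median log2 fold change of 1.31, and those on chromosomes 9, 11 and 17, with 7 each, had medians of 1.23, 1.11 and 1.26.

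**Figure D2:**
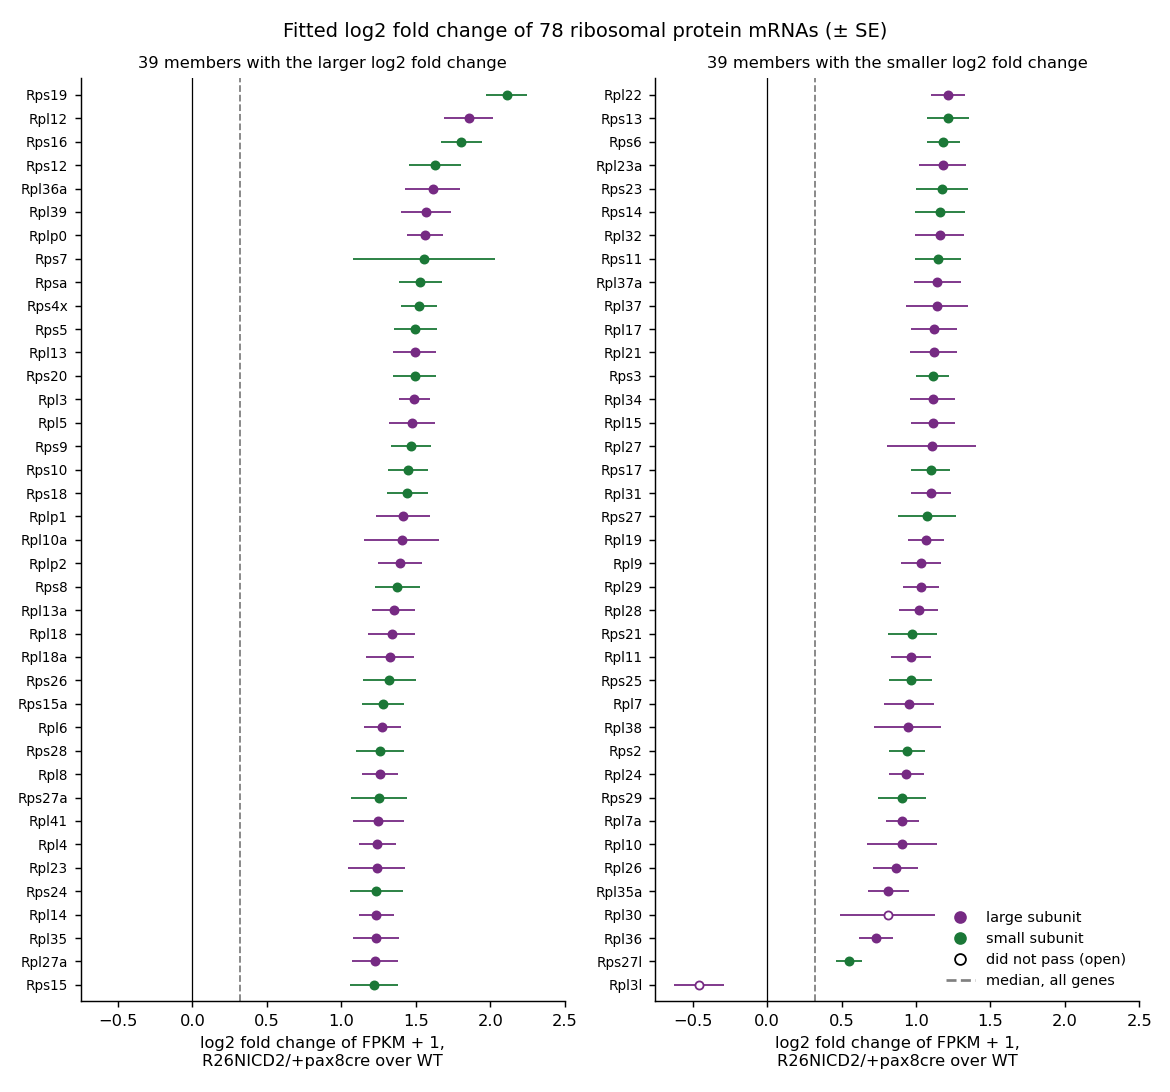
Fitted log2 fold change of FPKM + 1, R26NICD2/+pax8cre over WT, of each tested member with its SE (horizontal bars), ordered from the largest at upper left to the smallest at lower right; purple points are large subunit, green points small subunit and open points did not pass. All but Rpl3l lie right of 0 and of the dashed median of all genes at 0.32.

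The small subunit held the member with the largest change. Rps19, the gene most often mutated in Diamond-Blackfan anaemia (gene 20085, GRCm38 chr7:24884592-24889811, plus strand), had 1226, 1345 and 1074 FPKM in the R26NICD2/+pax8cre libraries and 312, 252 and 278 FPKM in the WT libraries. Every R26NICD2/+pax8cre library was thus more than 3 times the highest WT library. Its means were 1215 ± 136 FPKM in R26NICD2/+pax8cre and 281 ± 30 FPKM in WT (SD, n = 3 each; log2 fold change 2.11, SE 0.14, limma adjusted p = 7.77e-05). Rps16, whose tail reaches the decoding site on the small subunit (chr7:28350689-28352698, plus strand), had 1431, 1406 and 1184 FPKM in R26NICD2/+pax8cre and 428, 350 and 370 FPKM in WT (log2 fold change 1.81, SE 0.14). Rps12, a protein of the beak of the small subunit known from Drosophila as a sensor in cell competition, had 1790, 1392 and 1358 FPKM in R26NICD2/+pax8cre and 570, 421 and 478 FPKM in WT (log2 fold change 1.63, SE 0.17). The groups of both genes lay far apart.

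Of the other small subunit members with known roles in disease or outside the ribosome, 5 are given here. Their log2 fold changes ran from 1.11 to 1.53, where the median member had 1.22. Rpsa, first described as a laminin receptor precursor, had 1013, 1004 and 998 FPKM in R26NICD2/+pax8cre and 416, 306 and 329 FPKM in WT (log2 fold change 1.53, SE 0.14). The R26NICD2/+pax8cre libraries were nearly equal, and all lay above WT. Rps3, which also has a role in DNA repair, averaged 331 ± 19.1 FPKM in R26NICD2/+pax8cre and 153 ± 15 FPKM in WT (log2 fold change 1.11). Rps14, lost in the 5q- syndrome in people, averaged 1219 ± 61.4 FPKM in R26NICD2/+pax8cre and 552 ± 118 FPKM in WT (log2 fold change 1.16). Rps26 averaged 1648 ± 145 FPKM and 666 ± 142 FPKM in the same order, with a log2 fold change of 1.32. Rps27a, made as a fusion with ubiquitin, averaged 485 ± 92.6 FPKM on its own row in R26NICD2/+pax8cre and 203 ± 35.9 FPKM in WT (log2 fold change 1.25). All 5 passed the test and their groups did not overlap.

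The stalk of the large subunit recruits the GTPases that drive translation, and all 4 of its members rose. Rplp0, which anchors the stalk, had 1565, 1616 and 1488 FPKM in R26NICD2/+pax8cre and 580, 505 and 499 FPKM in WT. Its libraries agreed within each group and did not overlap between them (log2 fold change 1.56, SE 0.12, limma adjusted p = 0.000121). Rpl12, which sits at the base of the stalk (chr2:32961712-32964045, plus strand), had 1455, 1339 and 1247 FPKM in R26NICD2/+pax8cre and 456, 324 and 346 FPKM in WT, the largest change of a large subunit member (log2 fold change 1.85, SE 0.16). The acidic proteins Rplp1 and Rplp2 had log2 fold changes of 1.41 and 1.39. Rplp1 averaged 2186 ± 172 FPKM in R26NICD2/+pax8cre and 829 ± 173 FPKM in WT, and Rplp2 870 ± 58.6 FPKM and 332 ± 53.4 FPKM. After scaling all 4 were still called higher, with a median of 1.13. Of all 78 members 76 were called higher on unscaled and 72 on scaled values, against 45.1% and 28.7% of all genes.

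On their own rows and by mean over all libraries, the members with the highest FPKM were Rpl41, Rplp1 and Rps27. The order differed between groups, with Rplp1 first in R26NICD2/+pax8cre and below Rps27, Rpl41, Rps2 and Rpl23a in WT, and rows of gene copies described later are not in it. Rpl41, a very short basic peptide at the bridge between the subunits (chr10:128548110-128549168, minus strand), had 2205, 2353 and 1840 FPKM in R26NICD2/+pax8cre and 1062, 817 and 818 FPKM in WT (log2 fold change 1.25, SE 0.17). Rps27, a zinc-binding small subunit protein, had 2236, 1726 and 1798 FPKM in R26NICD2/+pax8cre and 1131, 759 and 867 FPKM in WT (log2 fold change 1.07, SE 0.19). In both genes WT replicate 1 was the highest WT library and still lay below every R26NICD2/+pax8cre library.

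The members that bind Mdm2 rose with the rest. Of 10 on that list 10 were called higher, with a median log2 fold change of 1.14, and 8 of them after scaling, where 76 and 72 of all 78 members were. Rpl5, a partner of the 5S ribosomal RNA, had 247, 180 and 178 FPKM in R26NICD2/+pax8cre and 68.9, 66 and 79.3 FPKM in WT (log2 fold change 1.47, SE 0.16). Rpl11, its partner in the 5S particle, had 522, 529 and 483 FPKM in R26NICD2/+pax8cre and 309, 230 and 250 FPKM in WT (log2 fold change 0.97, SE 0.14). The groups of both genes did not overlap. Most of the Rpl5 sum lay on rows of gene copies, described later. With them Rpl5 came to 1124, 881 and 892 FPKM in R26NICD2/+pax8cre and 411, 367 and 391 FPKM in WT. The log2 fold change of Rpl5 was then 1.30, and own-row levels of Rpl5 and Rpl11 cannot be compared. Rpl23, a large subunit protein that also binds Mdm2, averaged 562 ± 124 FPKM on its own row in R26NICD2/+pax8cre and 236 ± 38.2 FPKM in WT (log2 fold change 1.24). Of 16 members tied to Diamond-Blackfan anaemia 16 were called higher, with a median of 1.11, and 14 after scaling, so neither list stood apart from the members by its counts. On that list the smallest p after Rps19 was that of Rps10, a protein of the head of the small subunit, at 1140 ± 78.9 FPKM in R26NICD2/+pax8cre and 419 ± 52.8 FPKM in WT. Rpl13a, known in human cells for silencing mRNAs after its release from the ribosome, averaged 1016 ± 89.5 FPKM in R26NICD2/+pax8cre and 399 ± 58.2 FPKM in WT (log2 fold change 1.35). Rpl22, needed in mice for the growth of T cell precursors, averaged 145 ± 10.8 FPKM and 61.8 ± 6.26 FPKM (log2 fold change 1.22).

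Paralogs of members, some of them restricted to certain tissues, were set beside their partners. Rpl3l, which replaces Rpl3 in heart and skeletal muscle (chr17:24727829-24736149, plus strand), had 1.96, 1.91 and 1.58 FPKM in R26NICD2/+pax8cre and 3.47, 2.1 and 3.15 FPKM in WT. All R26NICD2/+pax8cre libraries lay below all WT libraries, but the level was low and the test was not passed on unscaled values (log2 fold change -0.46, SE 0.17, limma adjusted p = 0.0523). It passed after median-of-ratios scaling, at -0.70 (adjusted p = 0.0109), and without WT replicate 2. Summed muscle markers were at most 3.68 FPKM in R26NICD2/+pax8cre and 0.38 FPKM in WT. Its partner Rpl3, a large subunit protein, had 874, 821 and 797 FPKM in R26NICD2/+pax8cre and 307, 283 and 295 FPKM in WT (log2 fold change 1.49, SE 0.10).

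Rps27l, a paralog of Rps27 that p53 induces (chr9:66944624-66949522, plus strand), had 253, 252 and 248 FPKM in R26NICD2/+pax8cre and 169, 168 and 177 FPKM in WT. The groups were tight and apart, and the change was the smallest among members called (log2 fold change 0.55, SE 0.09, limma adjusted p = 0.00178). After scaling it was 0.20 and did not pass (adjusted p = 0.171). Rpl39, which lines the exit tunnel, averaged 645 ± 47.7 FPKM in R26NICD2/+pax8cre and 220 ± 47.2 FPKM in WT (log2 fold change 1.57), while its testis paralog Rpl39l was at 0.09, 0.09 and 0.26 FPKM in R26NICD2/+pax8cre and 0.1, 0 and 0 FPKM in WT. Rps4x, the X-linked form of a small subunit protein, averaged 1159 ± 69.6 FPKM and 405 ± 34.7 FPKM (log2 fold change 1.52). Rpl22l1, a paralog of Rpl22 that the naming rule does not take in, averaged 134 ± 34.7 FPKM in R26NICD2/+pax8cre and 49.2 ± 7.09 FPKM in WT and was called higher (log2 fold change 1.40). The row of Rpl10l, a paralog of Rpl10 in the testis, held no values.

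Among the smallest changes were also Rpl36 and Rpl30, both of the large subunit. Rpl36 had 363, 373 and 412 FPKM in R26NICD2/+pax8cre and 241, 207 and 244 FPKM in WT (log2 fold change 0.73, SE 0.12, limma adjusted p = 0.00171). Rpl30, which in yeast blocks splicing of its own transcript, had 824, 444 and 681 FPKM in R26NICD2/+pax8cre and 514, 357 and 251 FPKM in WT (log2 fold change 0.81, SE 0.32, adjusted p = 0.0631). Rpl30 was the only tested member whose groups overlapped, because R26NICD2/+pax8cre replicate 2 lay below WT replicate 1. It passed without either of these libraries, at log2 fold changes of 1.06 without R26NICD2/+pax8cre replicate 2 and 1.07 without WT replicate 1.

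Ribosomal protein genes have many processed copies in the mouse genome, and reads can count to a copy instead of the gene. The table held 135 rows of such copies for 57 of the members, 112 of them loci the authors named as new. Copies were matched to members by the orthology entry the authors gave both rows, a choice made after the data were seen. They held 12.6% to 13.2% of the sum of members and copies in R26NICD2/+pax8cre and 11.9% to 13.5% in WT. For 8 members copies held over 50% of the gene's sum: Rpl10, Rpl27, Rpl31, Rps6, Rpl10a, Rpl5, Rps20 and Rpl13. Over all libraries copies also held 34.5% of the sum for Rpl23 and 36.3% for Rps27a.

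Rps6, the substrate of the S6 kinases downstream of mTORC1 (chr4:86854099-86857367, minus strand), had only 51.4, 44.4 and 44.8 FPKM on its own row in R26NICD2/+pax8cre and 21.5, 20.8 and 18 FPKM in WT. The row of its copy Rps6-ps4 (chr2:75191038-75191854, minus strand) had 1473, 1380 and 1359 FPKM in R26NICD2/+pax8cre and 621, 507 and 539 FPKM in WT. The annotated copy matches all 750 bases of the open reading frame of Rps6, so reads within it cannot be told apart. On its own row the log2 fold change of Rps6 was 1.18 (SE 0.11), and that of the copy row was 1.34 (SE 0.13). The same held for Rpl10, a late-joining large subunit protein, with 28.4, 36.9 and 35.7 FPKM in R26NICD2/+pax8cre and 12.2, 18.1 and 23.7 FPKM in WT. A locus at Rpl10-ps3 (chr9:50344201-50344984, minus strand), identical over all 645 bases of the reading frame, had 2042, 1919 and 1840 FPKM in R26NICD2/+pax8cre and 1075, 732 and 860 FPKM in WT. Low values of Rps6 and Rpl10 thus describe the rows of the table and not the mRNAs, and their level against other members cannot be read from it. The same limit applies to the other members with most of their sum on copies, Rpl5 among them.

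In Rps7 and Rpl30 the split between gene and copy differed from library to library. These genes were singled out after their values were seen. Rps7, a small subunit protein, had 562, 544 and 791 FPKM in R26NICD2/+pax8cre and 347, 288 and 94.5 FPKM in WT (log2 fold change 1.55, SE 0.48, limma adjusted p = 0.0263), and it lost its call without any 1 of the R26NICD2/+pax8cre libraries. Its copy row on the X chromosome (chrX:152909475-152910159, minus strand, at Gm6472) had 538, 525 and 73.7 FPKM in R26NICD2/+pax8cre and 28.5, 27.5 and 329 FPKM in WT. The library with little on the gene had much on the copy. Gene and copies summed to 1102, 1070 and 866 FPKM in R26NICD2/+pax8cre and 376, 317 and 425 FPKM in WT. The copy of Rpl30 on the X chromosome (chrX:71803616-71804080, at Rpl30-ps10) had 132, 238 and 109 FPKM in R26NICD2/+pax8cre and 0.6, 0.6 and 126 FPKM in WT. Gene and copies summed to 966, 716 and 798 FPKM in R26NICD2/+pax8cre and 515, 358 and 400 FPKM in WT, and these sums did not overlap. Both copies differ from the reading frame of their gene at 3 of the aligned bases. Stretches around differences are shown to let the gene and its copy be compared, 5' to 3' from GENCODE M21 transcripts (GRCm38), with the differing bases in capitals. They cover bases 18 to 78 of the reading frame for Rps7 and bases 66 to 126 for Rpl30.
Rps7: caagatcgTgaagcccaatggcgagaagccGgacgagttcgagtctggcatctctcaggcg
Gm6472: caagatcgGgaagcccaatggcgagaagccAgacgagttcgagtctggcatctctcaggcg
Rpl30: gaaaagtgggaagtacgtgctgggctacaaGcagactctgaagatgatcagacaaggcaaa
Rpl30-ps10: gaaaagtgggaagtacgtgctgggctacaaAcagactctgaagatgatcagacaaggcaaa

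With copy rows summed into their members, 77 of the 78 were called higher and 0 lower, against 45.1% higher and 16.3% lower of all genes, and the median log2 fold change was 1.23. Rpl30 then passed, at a log2 fold change of 0.97 (limma adjusted p = 0.0036). The members with the largest changes have few copy reads: copies held at most 7.62% of the sum in any library for Rps19, 2.47% for Rps12, 0.85% for Rps16 and 0.46% for Rpl12.

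**Figure D3:**
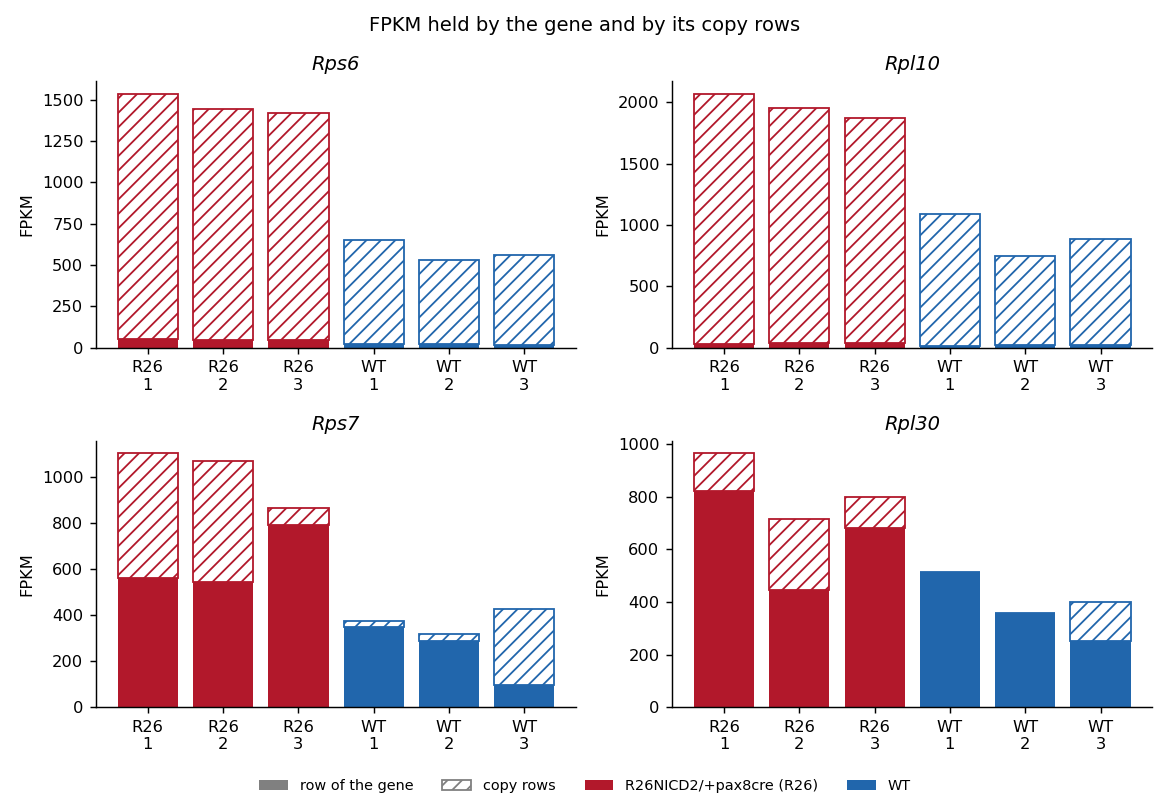
FPKM (linear axis from 0) on the row of the gene (filled) and on its copy rows (hatched), stacked, for Rps6, Rpl10, Rps7 and Rpl30 in the 3 R26NICD2/+pax8cre libraries (R26, red) and the 3 WT libraries (blue). Nearly all of Rps6 and Rpl10 lies on copies in every library, while for Rps7 and Rpl30 the copy share changes between libraries of the same group and the stacked total stays higher in R26NICD2/+pax8cre.

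To read the members against each other, each library was divided by its own median member and the fit was repeated. Against that median 7 members were above and 6 below at an adjusted p under 0.05, where 9.19% of all genes were called higher and 66.5% lower. The share of members above was near that of all genes. However, the scale, the median member, was itself higher in R26NICD2/+pax8cre, and on it the typical gene lay at -0.75. This shift raises the 66.5% and lowers the 9.19%, so neither is a baseline for the members above or below. Whether members differed from their median more often than other genes would was not tested. Above were Rps19, Rpl12, Rps16, Rps12, Rpl36a, Rpl39 and Rplp0. Below were Rpl3l, Rps27l, Rpl36, Rpl35a, Rpl26 and Rps29. These 13 differ in role: Rps19, Rps29, Rpl26 and Rpl35a are among the genes tied to Diamond-Blackfan anaemia, and Rplp0 and Rpl12 belong to the stalk.

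Rps19 stood at 1.31, 1.56 and 1.28 times the median member in R26NICD2/+pax8cre and at 0.716, 0.748 and 0.796 times in WT, so it lay above the median member in all R26NICD2/+pax8cre libraries and below it in all WT libraries (relative log2 fold change 0.87, SE 0.14, limma adjusted p = 0.000933). Rpl12 stood at 1.56, 1.55 and 1.49 times the median in R26NICD2/+pax8cre and 1.05, 0.962 and 0.99 times in WT (relative log2 fold change 0.62). Rps16 stood at 1.53, 1.63 and 1.41 times and 0.982, 1.04 and 1.06 times in the same order (relative log2 fold change 0.57). Each of these genes was well above the median member in R26NICD2/+pax8cre and near or below it in WT. Rps27l stood at 0.271, 0.293 and 0.296 times the median in R26NICD2/+pax8cre and 0.389, 0.499 and 0.505 times in WT (relative log2 fold change -0.69). Rpl35a, a large subunit protein, stood at 0.742, 0.757 and 0.748 times in R26NICD2/+pax8cre and 1.01, 0.987 and 1.01 times in WT (relative log2 fold change -0.42). The R26NICD2/+pax8cre libraries of both lay below every WT library.

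Only 5 of the 13 passed in each of the 6 fits that left out a library: Rps19, Rpl12 and Rps16 above, and Rps27l and Rpl3l below. Rps29 passed in 0 of the 6, Rplp0 and Rpl39 in 1 each. With R26NICD2/+pax8cre replicate 2 left out 4 were above and 3 below, and with replicate 3 left out 3 and 3. With WT replicate 2 left out 3 were above and 4 below, and with WT replicate 3 left out 4 and 3.

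**Figure D4:**
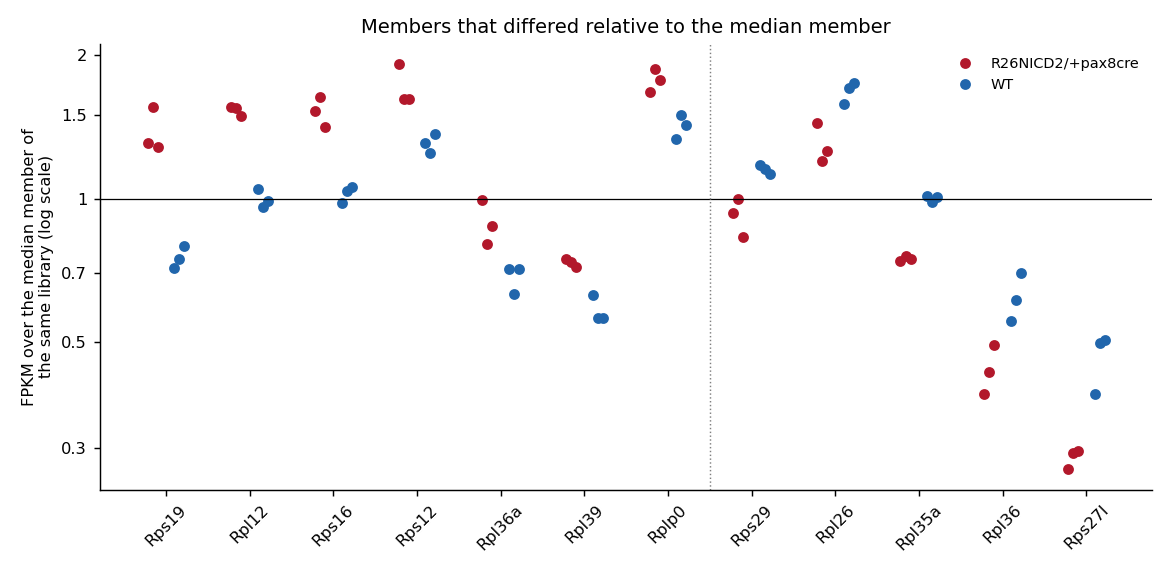
FPKM of a member divided by the median member of the same library (log scale, 1 is the median) for members that passed the relative test, each point a library, R26NICD2/+pax8cre in red left of WT in blue; members above are left of the dotted line and members below right of it. Rps19 lies at 1.28 to 1.56 in R26NICD2/+pax8cre and at 0.716 to 0.796 in WT; Rpl3l, at under 0.01 times the median in every library, is not drawn.

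Sequence at the start sites was read for the members found by gene identifier in the RefSeq promoter table of GRCm38.p6, 60 of the 80. The longest run of C and T within 20 bases of the annotated start had a median of 7 bases over members. It was 5 bases over all 27025 genes with a promoter entry. These include genes not tested for expression here, so they are a broader background than all genes tested. A run of 8 or more was found in 28 members (46.7%) and in 15.9% of the 27025 genes. Annotated starts can lie off the true start, and a run is not proof of a TOP tract. The 27 tested members with such a run had a median log2 fold change of 1.23, and the 31 without had one of 1.21, with ranges of 0.55 to 1.63 and -0.46 to 2.11. Runs are shown for the members with the largest changes, for a few with long runs and for the paralog Rps27l, as the 20 bases before and the 20 from the start, on the strand of the gene, with the longest run in capitals. The windows are chr7:24884572-24884611 (plus) for Rps19, chr2:32961692-32961731 (plus) for Rpl12, chr7:28350669-28350708 (plus) for Rps16, chr10:23787190-23787229 (minus) for Rps12, chr4:86857348-86857387 (minus) for Rps6, chr7:45128726-45128765 (minus) for Rpl13a, chr2:26910787-26910826 (plus) for Rpl7a and chr9:66946066-66946105 (plus) for Rps27l.
Rps19: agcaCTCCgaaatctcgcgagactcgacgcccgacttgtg
Rpl12: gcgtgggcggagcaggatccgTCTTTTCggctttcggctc
Rps16: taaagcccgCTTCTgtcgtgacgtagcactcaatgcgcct
Rps12: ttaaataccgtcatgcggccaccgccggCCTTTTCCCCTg
Rps6: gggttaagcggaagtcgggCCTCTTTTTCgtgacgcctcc
Rpl13a: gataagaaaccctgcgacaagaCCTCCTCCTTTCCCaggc
Rpl7a: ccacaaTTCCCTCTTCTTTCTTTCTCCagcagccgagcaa
Rps27l: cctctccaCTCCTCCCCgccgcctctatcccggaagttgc

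Rps6 and Rpl7a show a run across the annotated start, of 10 and 21 bases, and Rpl7a had one of the smaller log2 fold changes, 0.91, while Rps19, with a run of 4, had the largest. The whole promoter window of 300 bases was read on both strands. CGGAAG is the core of sites for Ets factors such as Gabpa. It was found in 41 members (68.3%) and in 17.2% of the 27025 genes with a promoter entry. These again include genes not tested for expression, here and for the next motifs. GGGCGG, the Sp1 box, was in 34 (56.7%) against 35.9%. AANATGGC, part of the Yy1 motif, was in 10 (16.7%) against 6.23%, and TATAAA in 6 (10%) against 14.2%. CGGAAG read on the other strand holds a short run of C and T and can overlap such runs. A match is a run of letters and was not tested for binding.

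Other parts of the translation machinery were counted on lists chosen with earlier results known, and the counts stand against 45.1% higher and 16.2% lower of all genes tested, or 28.7% and 25.7% after scaling. Near relatives of the members outside the naming rule had 8 of 10 called higher and 0 lower, and 5 after scaling. Rack1, a protein of the small subunit head, had 813, 808 and 763 FPKM in R26NICD2/+pax8cre and 302, 250 and 269 FPKM in WT (log2 fold change 1.54, SE 0.12). Rsl24d1, which joins large subunit precursors, averaged 33.2 ± 0.81 FPKM in R26NICD2/+pax8cre and 16.8 ± 2.07 FPKM in WT. Among 20 other mRNAs known to carry a TOP tract 19 were called higher and 0 lower, with a median log2 fold change of 1.02, and 15 after scaling. Eif3f, a subunit of initiation factor eIF3 and the member of that list with the smallest p, averaged 249 ± 12.2 FPKM in R26NICD2/+pax8cre and 96.1 ± 2.07 FPKM in WT (log2 fold change 1.36).

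Ribosome biogenesis genes had 43 of 49 called higher and 1 lower (median 0.87), and 35 higher and 4 lower after scaling, where 45.1% of all genes were higher on unscaled and 28.7% on scaled values. Eif6, which keeps new large subunits from joining small ones too early, had 100, 114 and 104 FPKM in R26NICD2/+pax8cre and 31.8, 30 and 32 FPKM in WT (log2 fold change 1.73, SE 0.09). Gar1, of the particles that modify ribosomal RNA, averaged 19.1 ± 1.26 FPKM in R26NICD2/+pax8cre and 5.72 ± 1.04 FPKM in WT. The member lower, named after its values were seen, was Utp20, a small subunit processing factor, at 12.5 ± 0.754 FPKM and 25.1 ± 0.956 FPKM. RNA polymerase I had 7 of 8 subunits called higher and 0 lower, and 4 after scaling. Polr1b and Polr1c had log2 fold changes of 1.18 and 1.04.

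Elongation and termination factors had 9 of 11 called higher and 0 lower, and 7 after scaling, against the same 45.1% and 28.7% of all genes. Eef1b2, an exchange factor of elongation, averaged 183 ± 14.3 FPKM in R26NICD2/+pax8cre and 65.8 ± 7.19 FPKM in WT. Gspt2, a release factor subunit, had 12.8, 12.8 and 12.9 FPKM in R26NICD2/+pax8cre and 2.17, 0.98 and 0.79 FPKM in WT. Of the initiation factors 25 of 39 were called higher and 4 lower (median 0.49), and 12 higher and 5 lower after scaling, which is near the 28.7% higher of all genes. Besides Eif3f the smallest p was that of Eif3h, at 280 ± 8.4 FPKM in R26NICD2/+pax8cre and 150 ± 1.85 FPKM in WT. The 4 lower on this list, named after their values were seen, were Eif4a2, Eif4g3, Eif5 and Eif4ebp3. The last encodes a binding protein of initiation factor eIF4E and not a factor itself.

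Of the genes of mTORC1 and the S6 kinases 8 of 26 were called higher and 4 lower on unscaled values, where 45.1% and 16.2% of all genes were. After scaling 5 were higher and 8 lower, where 28.7% and 25.7% of all genes were. Mlst8, a subunit of the complex, had 11.3, 11.5 and 11.6 FPKM in R26NICD2/+pax8cre and 6.18, 5.18 and 4.86 FPKM in WT. Rragd, a GTPase that brings mTORC1 to the lysosome, averaged 25.9 ± 3.9 FPKM in R26NICD2/+pax8cre and 11.1 ± 1.47 FPKM in WT. The kinase Mtor, named with Sesn1, Lamtor4 and Lamtor5 as the 4 lower after values were seen, had 10.7, 13.1 and 13.6 FPKM in R26NICD2/+pax8cre and 24, 43.6 and 38.3 FPKM in WT (log2 fold change -1.39, SE 0.23, limma adjusted p = 0.00193). Its groups did not overlap. mRNA levels do not show the activity of the kinase.

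The Myc network and the transcription factors of ribosomal protein genes had 13 of 17 called higher and 1 lower, Mxd4, and 8 higher and 3 lower after scaling. Of all genes 45.1% were higher on unscaled and 28.7% on scaled values. E2f1, a factor of the cell cycle, averaged 12.9 ± 2.99 FPKM in R26NICD2/+pax8cre and 1.77 ± 0.436 FPKM in WT. Mxd3, a partner of Max, averaged 14.5 ± 3.63 FPKM in R26NICD2/+pax8cre and 0.87 ± 0.766 FPKM in WT. Its WT mean lay below 1 FPKM, with an SD nearly as large. Of 11 genes of the Mdm2 and p53 list 10 were called higher and 0 lower, and 6 after scaling. Trp53, which encodes p53, had 90.8, 103 and 102 FPKM in R26NICD2/+pax8cre and 21, 15.2 and 15.7 FPKM in WT (log2 fold change 2.45, SE 0.14). Eda2r, a receptor gene that p53 induces, had 7.27, 5.81 and 6.04 FPKM in R26NICD2/+pax8cre and 0.15, 0.21 and 0.06 FPKM in WT. In both genes the groups were far apart, but the WT values of Eda2r lay below 1 FPKM, a level that rests on few fragments.

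The mitochondrial ribosome is built from proteins of its own. Of its 78 members tested, 11 were called higher and 10 lower, with a median log2 fold change of 0.05, against 76 higher and 0 lower of 78 cytosolic members and 45.1% higher and 16.2% lower of all genes. After scaling 2 were higher and 36 lower, with a median of -0.30, against 28.7% higher and 25.7% lower of all genes. Their summed FPKM was 3442, 3744 and 3635 in R26NICD2/+pax8cre and 3790, 3474 and 3560 in WT, so the groups overlapped, where those of the cytosolic members did not. Mrpl23 and Mrpl52, both of the large mitochondrial subunit and with the smallest p, had log2 fold changes of 1.04 and 1.00. The difference between the families was described by these counts and was not tested as such.

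**Figure D5:**
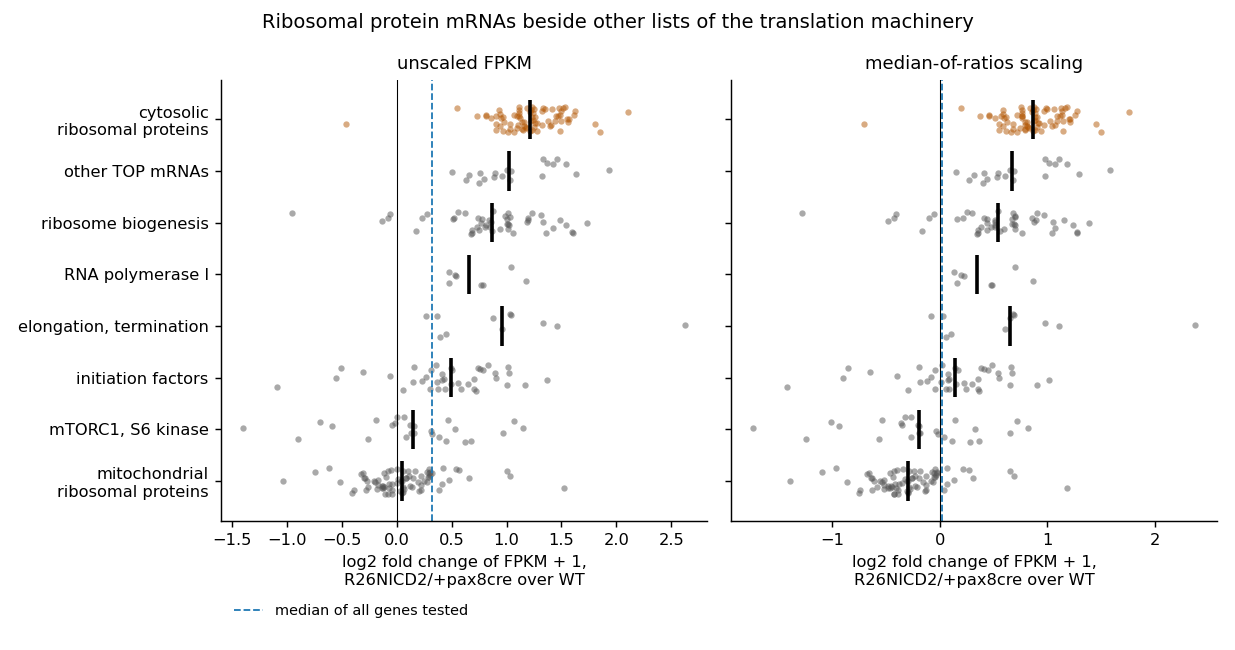
Log2 fold change of FPKM + 1, R26NICD2/+pax8cre over WT, of each tested gene (points) with the list median (black bars), on unscaled values at left and after median-of-ratios scaling at right; the dashed line is the median of all genes tested, 0.32 at left and 0.02 at right. The cytosolic ribosomal proteins, in orange, have medians of 1.22 and 0.87, and the mitochondrial ones 0.05 and -0.30.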

How the data were processed

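RNA-seq of 6 whole-kidney libraries was given as FPKM per gene, which the authors computed, per the file headers. Bowtie 0.12.2 and mm8 stand in the submitters' processing notes. Start and end equalled those of RefSeq for GRCm38 in 19404 of 22002 matched genes (88.2%), and positions are read as GRCm38. The authors' deposited log2 fold changes and q-values, made with DESeq2 per the file headers, are quoted only where named. The tool that counted fragments is not given in the sources used here.

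Rows without values (4370 of 23873) were left out. Since the file held no counts, limma 3.58.1 with a mean-variance trend was run in R 4.3.3 on log2(FPKM + 1), for 13500 genes with at least 1 FPKM in 3 or more libraries. Genotype was the only term, tests were two-sided, and adjusted p was by Benjamini-Hochberg over all genes. Fold changes on this scale understate those of low genes. Errors are SD over 3 libraries or the SE of limma. Median-of-ratios factors came from genes above 0 in every library. There were 0 further columns of single libraries.

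The members and lists were chosen with earlier results of these data known. Members were named by rule: the 4 largest and 4 smallest log2 fold changes, the 3 highest means, paralogs with their partners, the stalk, 13 members with known roles, and the 2 smallest p of each other list. Lists share genes. Rps2, Rpl23a, Rps7, members compared with the median member, copies, promoters and list members called lower were singled out after values were seen. Copy reading frames were the longest from ATG to stop in coding transcripts. Depth was estimated from steps between low FPKM values, of which 71.2% to 78.2% lay within 0.15 of whole fragments. The fit was first run on simulated data. Alternatives were pseudocounts, no filter, other scalings, the replicate number as a block, other thresholds, each library left out, and summed copies.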

Additional observations from a re-analysis of the deposited data

How the results depend on the processing

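Of the members 74 to 77 were called higher and 0 to 1 lower when a library was left out, with medians from 1.136 to 1.328. Rps7 lost its call without any of the R26NICD2/+pax8cre libraries and Rpl27 without replicate 1. Median-of-ratios and upper quartile scaling gave medians of 0.8662 and 0.9322 and, like quantile normalization, 1 member lower. Median-of-ratios scaling without WT replicate 1 gave 0.9135 and with copies summed 0.8793, each with 1 lower; both were added after seeing the data. Scaled to the median member, 7 were higher and 6 lower with a median of -0.0111, and since the scale is the median member itself 43 members turned, among them these 10 named ones: Rpl10 to -0.2846, Rpl11 to -0.2682, Rpl22 to -0.0091, Rpl30 to -0.4249, Rpl36 to -0.5048, Rps14 to -0.076, Rps27 to -0.1648, Rps27l to -0.685, Rps3 to -0.1195 and Rps6 to -0.0157.

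Against the median member, 3 were above with no filter, 8 above and 11 below after quantile normalization, 3 and 2 at an adjusted p of 0.01, and 0 and 1 at a log2 fold change of 1 or more. Leaving out a library gave 3 to 6 above and 3 to 9 below. The causes were not tested. The labels do not pair the samples by replicate number, and deviations of same-numbered libraries correlated at 0.0951, -0.0498 and 0.0056. With 3 libraries a group these values cannot exclude a pairing. With the number as a block 77 members were higher, and 10 were above and 12 below the median member. Members on few fragments, such as Rpl3l, are limited by depth, and 3 libraries a group limit all others.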
